A study of Mus musculus with 21 samples.

Results

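The 44 mouse genes for collagen chains, those whose gene name is Col, a number, the letter a and a number, were described in RNA sequencing libraries of the cell line OG2. They fall into 11 fibrillar chains, 6 basement membrane chains (the Col4 genes) and 27 other chains. The cell-state table lists 32 of them (11, 4 and 17) among 21161 gene names, and the lactate table lists all 44 among 55291. The cell-state libraries are labelled 2-cell-like cells (2CLCs, which carry transcripts of the 2-cell embryo), epiblast stem cells (EpiSCs, a primed form of pluripotency), mouse embryonic fibroblasts (MEFs) and embryonic stem cells (ESCs), with WT given as the treatment. The lactate libraries are ESCs with 0, 60 or 80 mM sodium lactate, the 0 mM cells also labelled WT. The labels give OG2 for every library, MEFs included. Each of the 7 groups has 3 libraries, 21 in all. The labels do not say how 2CLCs were obtained or for how long lactate was given.

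Collagens are secreted proteins in which 3 chains wind into a triple helix. Fibrillar chains build the fibres of connective tissue, which fibroblasts make in bulk, and type IV chains build the sheet-like network of basement membranes, a matrix that early embryonic epithelia also lay down. The other chains line or link fibrils, form beaded filaments or anchoring fibrils, span the cell membrane, or, like the chain of Col18a1, release a fragment (endostatin) from a basement membrane proteoglycan.

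All values are FPKM (fragments per kilobase of transcript, scaled to the fragments of the library) as deposited, and their depth is unknown. Genes are set side by side on this scale per length, although the annotation that gave the lengths is not named. The FPKM of a library summed to between 375926 and 519915 for the cell states and between 396792 and 409131 for lactate. The first EpiSC library stood apart from the others of its group (Pearson r across genes 0.973 with each, against 0.996 between the others). The 2 tables were normalized separately and were not tested against each other. In these bulk samples, fewer cells of a type and less RNA per cell cannot be told apart. The labels fitted their markers: 10 fibroblast markers summed to between 909.7 and 928.6 FPKM in MEFs, 6 primed epiblast markers to between 498.2 and 629.0 in EpiSCs, and 6 markers of the 2-cell-like state to between 11416 and 12566 in 2CLCs, against 3.321 to 3.9, 41.2 to 43.1 and 4.20 to 4.76 in ESCs. In EpiSCs the 6 naive stem cell markers summed to between 1.24 and 3.09 FPKM, against 1312 to 1324 in ESCs. The 2CLC libraries kept much of this naive signal: all 6 markers averaged at least 1 FPKM there and summed to between 810.6 and 902.0.

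Col4a1 and Col4a2, which lie side by side, carry much of what follows. The gene for the α1 chain of type IV collagen lies on the minus strand of chromosome 8 from 11198423 to 11312826, and the gene for its partner α2 chain on the plus strand from 11312805 to 11449287 (GRCm38, GENCODE M21). They stand head to head with start sites 21 bases apart, and 22 bases of their exons overlap on opposite strands. The promoter windows below run from 250 bases before to 50 bases after the start (RefSeq, GRCm38.p6). Capitals mark CCAAT and GGGCGG (the letters of a GC box) on either strand, and TATAAA. The 2 Col4 windows share 78 bases read on opposite strands. Col5a1, a fibrillar gene detected in every group, and Col3a1, a fibrillar gene near 0 outside EpiSCs and MEFs, are shown as a contrast and were chosen after their values were seen.
Col4a1 promoter, chr8:11312777-11313076, minus strand: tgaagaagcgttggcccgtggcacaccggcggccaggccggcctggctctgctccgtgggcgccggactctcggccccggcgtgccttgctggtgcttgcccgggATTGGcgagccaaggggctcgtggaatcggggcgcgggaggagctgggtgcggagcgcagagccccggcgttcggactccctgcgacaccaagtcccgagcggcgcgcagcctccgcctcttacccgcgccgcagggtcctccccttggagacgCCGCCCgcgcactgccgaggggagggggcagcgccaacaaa
Col4a2 promoter, chr8:11312555-11312854, plus strand: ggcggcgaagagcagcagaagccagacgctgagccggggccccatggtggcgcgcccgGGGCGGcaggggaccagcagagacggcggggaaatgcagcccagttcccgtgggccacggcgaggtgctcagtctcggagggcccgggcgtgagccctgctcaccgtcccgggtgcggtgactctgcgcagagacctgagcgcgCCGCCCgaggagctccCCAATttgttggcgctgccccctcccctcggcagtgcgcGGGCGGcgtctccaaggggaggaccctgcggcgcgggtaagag
Col5a1 promoter, chr2:27886175-27886474, plus strand: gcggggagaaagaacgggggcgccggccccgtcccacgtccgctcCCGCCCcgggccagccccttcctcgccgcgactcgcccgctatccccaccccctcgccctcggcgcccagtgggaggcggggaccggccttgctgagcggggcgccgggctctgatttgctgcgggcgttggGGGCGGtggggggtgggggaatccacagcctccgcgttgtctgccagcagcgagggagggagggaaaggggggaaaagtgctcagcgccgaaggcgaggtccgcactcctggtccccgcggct
Col3a1 promoter, chr1:45311288-45311587, plus strand: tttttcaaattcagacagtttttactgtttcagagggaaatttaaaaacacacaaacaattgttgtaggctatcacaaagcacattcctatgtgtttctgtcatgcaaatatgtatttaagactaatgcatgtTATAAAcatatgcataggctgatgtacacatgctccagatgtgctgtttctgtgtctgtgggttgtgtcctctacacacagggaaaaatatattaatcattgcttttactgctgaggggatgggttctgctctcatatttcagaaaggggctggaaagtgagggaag

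The windows of Col4a1, Col4a2 and Col5a1 were 74.0, 73.7 and 75.0% G or C and held 37, 33 and 34 CpG sites, while that of Col3a1 was 37.7% G or C and held 0. Counted from each start, the CCAAT letters stood at -145 in Col4a1 and at -32 in Col4a2, and TATAAA stood at -117 in Col3a1. Promoter windows were given for 35 of the 44 genes, 38 windows in all, with a median of 11.5 CpG sites, against 7 over all 32851 windows of the table. CCAAT stood in 13 of the 38 (37.4% of all windows hold it), GGGCGG in 23 (35.7%) and TATAAA in 5 (13.6%). These matches describe letters only, and no binding was measured. Col4a6 and Col4a5, on the X chromosome, also stand head to head, with starts 1343 bases apart, and Col3a1 and Col5a2 lie tail to tail on chromosome 1.

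Few collagen genes were expressed in the pluripotent and 2-cell-like cells, and 1 of them, Col18a1, held the largest share of the collagen signal there. Of the 32 chains listed, 3 averaged at least 5 FPKM in 2CLCs, 3 in EpiSCs, 19 in MEFs and 2 in ESCs, and 9, 13, 23 and 5 averaged at least 1 FPKM. The chains together made up 0.0116% ± 0.000376 of all FPKM in 2CLCs, 0.0205% ± 0.00375 in EpiSCs and 0.480% ± 0.00583 in MEFs, against 0.0153% ± 0.000341 in ESCs (SD, n = 3 each). The summed collagen FPKM of 2CLCs, at 59.0, 62.45 and 58.8, overlapped with that of ESCs, at 64.7, 62.2 and 64.6, while all FPKM of a library summed to 518399 to 519915 in 2CLCs, against 415173 to 416600 in ESCs. In the share of all FPKM none of the other groups overlapped with ESCs, and each exact permutation test gave p = 0.1, the smallest that 3 against 3 libraries allow (two-sided). The EpiSC shares were 0.0248, 0.0181 and 0.0186%. Without the first library the difference from ESCs went from 0.00514 to 0.00298 percentage points. The share of the other chains averaged 0.0130% in EpiSCs and 0.0123% in ESCs, and the libraries overlapped. Col18a1 alone held 44.4% ± 1.34 of the collagen FPKM in 2CLCs, 49.3% ± 7.57 in EpiSCs and 2.02% ± 0.0976 in MEFs, against 73.9% ± 0.648 in ESCs. The fibrillar chains held 11.2% ± 0.997 in 2CLCs, 19.6% ± 1.87 in EpiSCs and 57.0% ± 0.514 in MEFs, against 5.20% ± 0.347 in ESCs. The basement membrane chains held 23.6% ± 1.99, 17.8% ± 2.60 and 18.0% ± 0.558 in the same groups, against 14.7% ± 0.718 in ESCs.

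**Figure D1:**
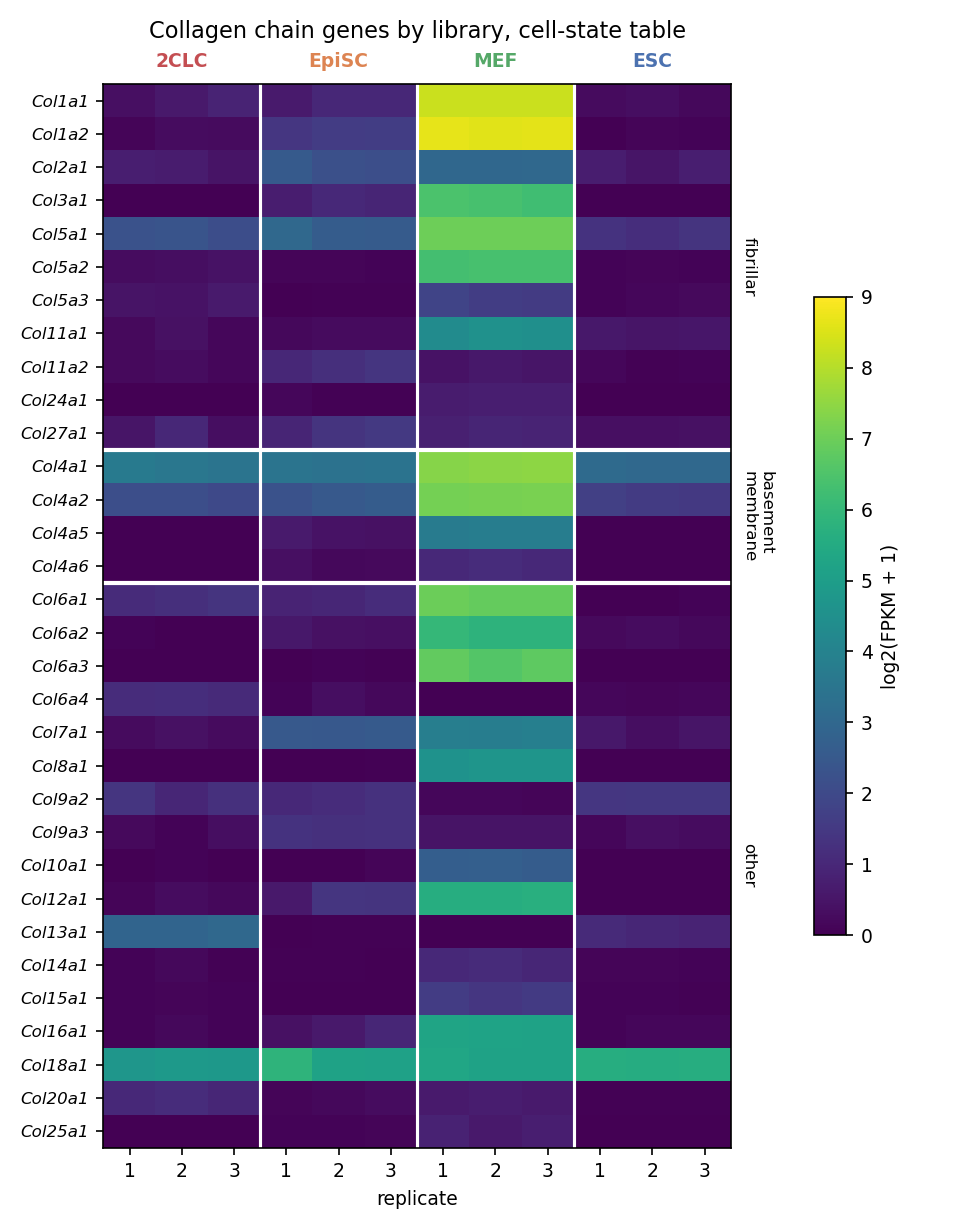
Levels of the 32 collagen chain genes of the cell-state table, as log2(FPKM + 1) by colour, with 1 column per library in groups of 3 and genes grouped by class. The MEF columns are bright for most fibrillar chains and for Col4a1 and Col4a2, and Col18a1 is bright in all 12 libraries.

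**Figure D2:**
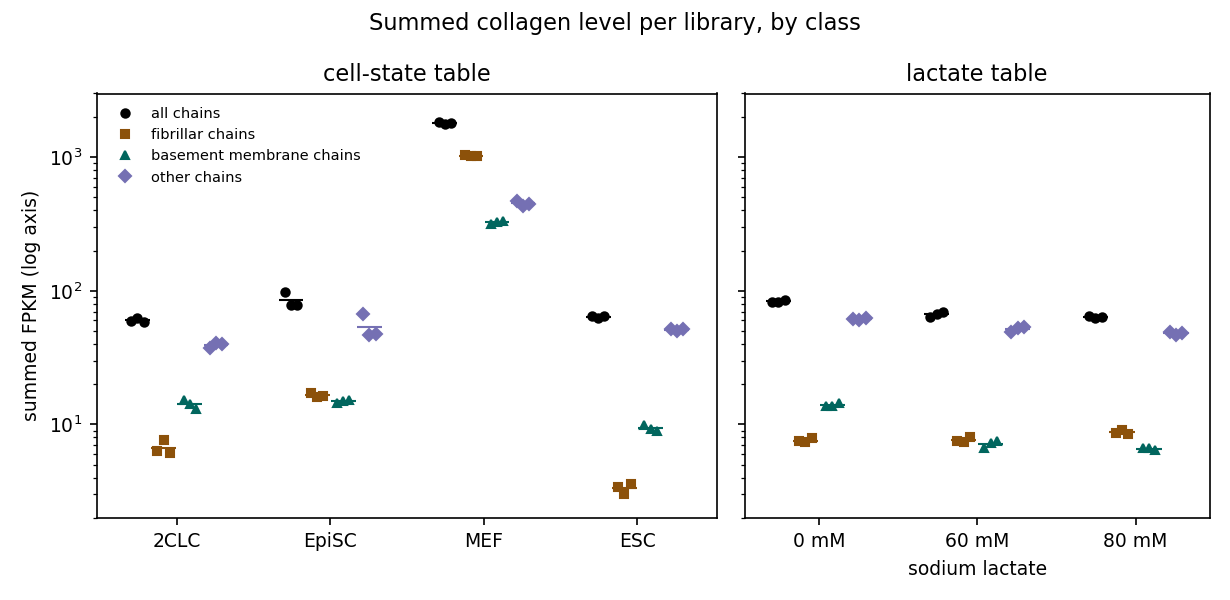
Summed FPKM (log axis) of all collagen chains and of each class, 1 point per library with a line at the mean of 3. All chains summed to between 1786 and 1827 FPKM in MEFs, and to between 62.2 and 64.7 in ESCs, while in the lactate table the basement membrane sum was lower at 60 and 80 mM than at 0 mM.

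A gene entered the tests when 3 or more libraries of its table reached 1 FPKM. Groups were compared with limma on log2(FPKM + 1), and a change was called at an adjusted p (Benjamini-Hochberg, over all genes) under 0.05. Fold changes on this scale understate the change of genes near 0. Of the 32 collagen genes 27 could be tested in the cell-state table (9 fibrillar, 4 basement membrane, 14 other), and 8 of 44 in the lactate table. Col11a2, Col14a1, Col20a1, Col24a1 and Col25a1 did not pass in the cell-state table, and their highest group means, 1.31 (EpiSCs), 1.05 (MEFs), 1.07 (2CLCs), 0.670 (MEFs) and 0.671 FPKM (MEFs), were low. With no filter all of them were called higher in MEFs than in ESCs. Col11a2 was then also called higher in EpiSCs, and Col20a1 (0.0370 FPKM in ESCs) in 2CLCs.

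MEFs had the largest summed collagen level of the 4 cell states, led by chains of types I, III, IV, V, VI and XII, and on the FPKM scale Col4a1 stood 23.1-fold and Col5a1 87.9-fold above ESCs. Of the 27 genes tested, 23 rose in MEFs (85.2%) and 4 fell (14.8%), beside 34.4% and 40.9% (75.3% in all) of the 16358 genes tested. Of the 27, 14 passed the filter only through the MEF libraries, so that their direction was fixed by the filter. Without MEF replicate 1, 2 or 3 the genes called higher numbered 11, 10 and 10, since genes that only MEFs express then miss the filter. The median log2 fold change was 3.93 over the collagen genes and -0.07 over all genes. All 9 fibrillar and all 4 basement membrane genes tested rose, as did 10 of the 14 others. Of the genes that rose, 5 fibrillar, 2 basement membrane and 7 others were among those that passed only through the MEF libraries.

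The chains of type I collagen, the main fibre of skin and bone, led. Col1a2 stood at 404, 386.5 and 392 FPKM in MEFs, against 0, 0.0902 and 0.0646 in ESCs (a log2 fold change of 8.55 ± 0.079 SE, adjusted p = 2.51e-14). Col1a1 stood at 307.5, 312 and 311 FPKM in MEFs and at 0.196, 0.276 and 0.155 in ESCs (8.01). The MEF libraries lay close together, and the ratio of Col1a1 to Col1a2 in them was 0.788 ± 0.0237 (SD, n = 3). Col3a1, whose chain forms homotrimers found with type I fibres, stood at 85.9, 83.1 and 74.0 FPKM in MEFs, against 0, 0.0124 and 0.00932 in ESCs (6.34). The type V chains, which set the width of type I fibrils, were also high. Col5a1 stood at 128, 129.8 and 127.8 FPKM in MEFs, against 1.52, 1.28 and 1.58 in ESCs (5.72), and Col5a2 at 79.3, 82.8 and 83.1 in MEFs, against 0.0722, 0.0942 and 0.0622 in ESCs (6.26). No MEF library came near an ESC library in either gene, and the ratio of Col5a1 to Col5a2 in MEFs was 1.57 ± 0.0392. Col11a1, best known from cartilage, stood at 19.3, 22.4 and 21.5 FPKM in MEFs, against 0.481, 0.411 and 0.448 in ESCs (3.93). Col2a1, the main cartilage fibre, stood at 7.07, 7.07 and 7.15 FPKM in MEFs, against 0.638, 0.410 and 0.673 in ESCs (2.37). Lowest of the fibrillar genes that rose were Col5a3, at 2.20 FPKM in MEFs and 0.123 in ESCs, and Col27a1, at 0.833 in MEFs and 0.302 in ESCs (adjusted p = 0.0216). Without 1 library the Col27a1 call was lost in 4 of 6 fits (adjusted p 0.0534 to 0.0662 in those), and it was lost with quantile normalization (adjusted p = 0.130).

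Both chains of the common basement membrane trimer were abundant in MEFs. Col4a1 stood at 165, 171 and 174.5 FPKM in MEFs, against 7.68, 7.31 and 7.15 in ESCs (a log2 fold change of 4.35 ± 0.061 SE, adjusted p = 2.73e-13). Col4a2 stood at 138.6, 140.3 and 143.2 FPKM in MEFs, against 2.24, 1.98 and 1.84 in ESCs (5.55 ± 0.097). The rise of Col4a2 was thus the larger on the log2 scale. Col4a5 and Col4a6, which build other type IV networks, were near 0 outside EpiSCs and MEFs. Col4a5 stood at 12.4, 13.1 and 13.0 FPKM in MEFs, against 0, 0 and 0.0150 in ESCs (3.78), and Col4a6 at 1.04, 1.21 and 1.07 in MEFs and listed at 0 in all 3 ESC libraries. In MEFs Col4a5 exceeded Col4a6 by a ratio of 11.6 ± 0.756.

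Among the other chains, type VI collagen, which forms beaded filaments around cells, was the most abundant in MEFs. Col6a1 stood at 126, 115 and 116 FPKM in MEFs, against 0, 0 and 0.0652 in ESCs (6.88). Col6a2 stood at 63.1, 55.6 and 55.9 FPKM in MEFs, against 0.176, 0.2155 and 0.139 in ESCs (5.65), and Col6a3 at 113.5, 94.4 and 107 in MEFs, against 0, 0.00705 and 0 in ESCs (6.72). These 3 chains join in 1 heterotrimer, and in MEFs the ratio of Col6a1 to Col6a2 was 2.05 ± 0.0419 and that of Col6a3 to Col6a1 was 0.881 ± 0.0555. Of the FACIT chains, which sit on the surface of fibrils, Col12a1 stood at 48.1, 47.8 and 50.5 FPKM in MEFs and was listed at 0 in all 3 ESC libraries. Col16a1, also of that family, stood at 37.3, 36.7 and 35.7 FPKM in MEFs, against 0.0727, 0.123 and 0.117 in ESCs (5.09). Network-forming and anchoring chains followed. Col8a1, a chain of the sheets under endothelia, stood at 23.0, 25.0 and 25.0 FPKM in MEFs, against 0, 0 and 0.0139 in ESCs (4.65). Col7a1, the chain of anchoring fibrils, stood at 13.6, 12.9 and 13.7 FPKM in MEFs, against 0.5025, 0.271 and 0.432 in ESCs (3.36). Col10a1, known from growth plate cartilage, stood at 5.43, 5.56 and 5.15 FPKM in MEFs, against 0.0231, 0.0160 and 0 in ESCs (2.65). Col15a1 and Col9a3 were the remaining genes called higher, at 1.87 and 0.389 FPKM in MEFs, against 0.0526 and 0.218 in ESCs (Col9a3 adjusted p = 0.0355, and 0.0502 to 0.238 in the 9 alternatives in which its call was lost).

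Of the 4 genes called lower in MEFs, Col13a1, a transmembrane chain, was at most 0.0165 FPKM in MEFs, against 1.13, 0.943 and 0.865 in ESCs, and Col9a2 was at 0.128, 0.127 and 0.0935 in MEFs, against 1.68, 1.75 and 1.75 in ESCs. The call of Col6a4, listed at 0 in MEFs and at 0.106 FPKM in ESCs (adjusted p = 0.0398), was lost in 8 alternatives. Col18a1 went against the other abundant chains: it stood at 39.0, 35.4 and 35.1 FPKM in MEFs, against 47.4, 46.0 and 48.2 in ESCs. The groups did not overlap, but its log2 fold change of -0.36 ± 0.151 (adjusted p = 0.0482) was not called in 9 alternatives. Scaling by the median of ratios brought it to -0.04 (adjusted p = 0.847).

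EpiSCs showed a broader but still low collagen expression than ESCs, with rises spread over fibrillar, basement membrane and other chains. Of the 27 genes tested, 16 rose (59.3%) and 3 fell (11.1%), beside 33.2% and 26.5% (59.7% in all) of the genes tested. The 16 were 6 of 9 fibrillar genes, 4 of 4 basement membrane genes and 6 of 14 others. None of the 16 averaged 10 FPKM in EpiSCs. Col27a1 and Col9a3, both among the 16, passed the filter only with the EpiSC libraries, so that their direction was fixed by the filter. Of the 27, 14 passed only through the MEF libraries, among them Col1a1, Col3a1, Col12a1, Col16a1, Col4a5, Col4a6 and Col6a2 of the 16. A fit of EpiSCs and ESCs alone tested 9 collagen genes, of which 7 were called higher and 1 lower. The median log2 fold change of the 27 genes was 0.36, against 0.01 over all genes.

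Among the fibrillar genes, Col5a1 stood at 7.20, 5.10 and 5.02 FPKM in EpiSCs, against 1.52, 1.28 and 1.58 in ESCs (a log2 fold change of 1.45 ± 0.115 SE, adjusted p = 9.14e-07). Col2a1 stood at 4.87, 3.63 and 3.49 FPKM in EpiSCs, against 0.638, 0.410 and 0.673 in ESCs (1.66 ± 0.120, adjusted p = 3.98e-07). The first EpiSC library was the highest of its group in both genes, and no EpiSC library overlapped with ESCs. Col1a2 stood at 1.69, 2.02 and 2.12 FPKM in EpiSCs (1.48), Col1a1 at 0.574, 0.979 and 1.02 (0.61) and Col3a1 at 0.634, 1.04 and 0.902 (0.88), each above every ESC library. Col5a2, whose chain joins with that of Col5a1, stood at 0.0912, 0.0918 and 0.0536 FPKM in EpiSCs, against 0.0722, 0.0942 and 0.0622 in ESCs, and did not pass the test (0.00 ± 0.064, adjusted p = 1). Col27a1, at 1.43 FPKM in EpiSCs and 0.302 in ESCs, was the sixth fibrillar gene called higher. Col11a1 was called lower, at 0.131, 0.211 and 0.195 FPKM in EpiSCs, against 0.481, 0.411 and 0.448 in ESCs (-0.30, adjusted p = 0.00929).

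In the basement membrane class, Col4a2 stood at 3.76, 4.76 and 5.11 FPKM in EpiSCs, against 2.24, 1.98 and 1.84 in ESCs (a log2 fold change of 0.87 ± 0.097, adjusted p = 1.48e-05). Col4a1 stood at 9.94, 9.62 and 9.65 FPKM in EpiSCs, against 7.68, 7.31 and 7.15 in ESCs (0.36 ± 0.061, adjusted p = 0.000385). Both genes were above every ESC library. Col4a5, at 0.5645, 0.364 and 0.335 FPKM in EpiSCs, and Col4a6, at 0.306, 0.1435 and 0.167, were under 1 FPKM and called higher than in ESCs, where they were at or near 0.

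Of the other chains, Col7a1 rose furthest on the log2(FPKM + 1) scale, to 4.65, 4.58 and 4.87 FPKM in EpiSCs, against 0.5025, 0.271 and 0.432 in ESCs (2.03 ± 0.083, adjusted p = 3.77e-09). Col9a3, a FACIT chain of cartilage fibrils, stood at 1.47, 1.39 and 1.41 FPKM in EpiSCs, against 0.117, 0.296 and 0.241 in ESCs (0.99), but shares 6.07% of its exonic bases with Tcfl5 on the opposite strand, and the labels do not say whether counting used strand. Its partner Col9a2 fell to 1.08, 1.19 and 1.45 FPKM in EpiSCs, against 1.68, 1.75 and 1.75 in ESCs (-0.29, adjusted p = 0.0282, lost in 7 alternatives). The ratio of Col9a3 to Col9a2 in EpiSCs was 1.17 ± 0.198. Col12a1 stood at 0.536, 1.61 and 1.58 FPKM in EpiSCs, the first library well under the others, and was listed at 0 in ESCs. Col6a1 stood at 0.869, 0.967 and 1.23 FPKM in EpiSCs, against 0, 0 and 0.0652 in ESCs. Col16a1 and Col6a2, at 0.601 and 0.362 FPKM in EpiSCs and 0.104 and 0.177 in ESCs, were called higher, Col6a2 with an adjusted p of 0.0476 that was lost in 8 alternatives. Col13a1 fell to at most 0.0494 FPKM in EpiSCs, against 1.13, 0.943 and 0.865 in ESCs. Col18a1 stood at 57.4, 35.7 and 34.8 FPKM in EpiSCs, against 47.4, 46.0 and 48.2 in ESCs, and was not called (-0.18, adjusted p = 0.333). The first EpiSC library lay above all ESC libraries and the others below them, and without it Col18a1 was called lower (-0.41, adjusted p = 6.96e-05).

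The summed fibroblast markers stood at 11.1 to 11.8 FPKM in EpiSCs, against 3.321 to 3.9 in ESCs, with 3 and 2 of the 10 genes averaging at least 1 FPKM. Of the 10 genes, Dcn, Postn, Prrx1 and Twist2 were at 0 in all ESC libraries, and none was at 0 in all EpiSC libraries. The 9 primitive and parietal endoderm markers listed summed to 2.38 to 3.29 FPKM in EpiSCs and 83.9 to 87.6 in MEFs, against 15.1 to 16.6 in ESCs. In EpiSCs, MEFs and ESCs, 1, 3 and 1 of them averaged at least 1 FPKM. The part of either list in the collagen levels was not tested.

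In 2CLCs, a single transmembrane chain, the type IV pair and Col5a1 were higher than in ESCs, while Col18a1 was lower. Of the 27 genes tested, 9 rose (33.3%) and 4 fell (14.8%), beside 20.1% and 56.4% (76.5% in all) of the genes tested. Of the 27, 14 passed the filter only through the MEF libraries. Among these were Col1a1, Col5a2 and Col5a3, called higher, and Col11a1 and Col6a2, called lower, each averaging under 1 FPKM in both 2CLCs and ESCs. A fit of 2CLCs and ESCs alone tested 8 collagen genes, of which 6 were called higher and 1 lower. Of the 27, 3 passed the filter only with the 2CLC libraries: Col13a1 and Col6a4, whose direction was fixed by that, and Col27a1, which was not called. The genes called lower numbered 1 without 2CLC replicate 3 and 2 without ESC replicate 1 or 3. The median log2 fold change was 0.02 for the collagen genes and -0.46 for all genes, so the scaling between libraries bears on these counts. With median-of-ratios scaling, which brings the median of all genes to 0.04, the split of the collagen genes became 12 higher and 0 lower, of 28 tested.

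Col13a1, whose chain spans the membrane at cell adhesions and at the neuromuscular junction, rose furthest on the log2(FPKM + 1) scale. On the FPKM scale it rose 6.84-fold, less than Col6a1 (62.6-fold) and Col6a4 (11.2-fold), which were nearer 0 in ESCs. It stood at 6.38, 6.54 and 7.14 FPKM in 2CLCs, against 1.13, 0.943 and 0.865 in ESCs (a log2 fold change of 1.96 ± 0.066 SE, adjusted p = 2.63e-10). Every 2CLC library was above every other library of the table, and EpiSCs and MEFs were at or near 0. Col5a1 stood at 3.81, 4.07 and 3.33 FPKM in 2CLCs, against 1.52, 1.28 and 1.58 in ESCs (0.94 ± 0.115, adjusted p = 1.52e-05). Col4a1 stood at 11.8, 10.8 and 10.1 FPKM in 2CLCs, against 7.68, 7.31 and 7.15 in ESCs (0.50 ± 0.061, adjusted p = 1.48e-05), and Col4a2 at 3.43, 3.49 and 2.94 in 2CLCs, against 2.24, 1.98 and 1.84 in ESCs (0.51 ± 0.097, adjusted p = 0.000582). None of these groups overlapped. Col4a5 and Col4a6 were listed at 0 in all 2CLC libraries.

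Lower levels changed as well. Col6a1 stood at 1.18, 1.34 and 1.57 FPKM in 2CLCs, against 0, 0 and 0.0652 in ESCs (a log2 fold change of 1.21), while Col6a2 and Col6a3, its partners in the type VI trimer, were at most 0.0536 and 0.0136 FPKM in 2CLCs. Col6a2 was called lower, at 0.0259 FPKM in 2CLCs and 0.177 in ESCs, but its adjusted p of 0.0467 was lost in 8 alternatives. Col6a4, another type VI chain, stood at 1.19, 1.25 and 1.124 FPKM in 2CLCs, against 0.116, 0.0963 and 0.106 in ESCs (0.98), and no library of the other groups reached 1 FPKM. Col5a2 stood at 0.241, 0.274 and 0.340 FPKM in 2CLCs, against 0.0722, 0.0942 and 0.0622 in ESCs (0.26, adjusted p = 0.00361, lost with quantile normalization), and Col5a3 averaged 0.4415 FPKM in 2CLCs and 0.123 in ESCs (0.36, adjusted p = 0.0012). Col1a1 stood at 0.291, 0.536 and 0.855 FPKM in 2CLCs, against 0.196, 0.276 and 0.155 in ESCs (0.35, adjusted p = 0.0299, lost in 5 alternatives). Its 2CLC libraries spread over a wider range than the distance between the group means. Col1a2, at 0.102, 0.234 and 0.192 FPKM in 2CLCs, and Col3a1, at 0, 0.0235 and 0, did not pass the test.

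Col18a1 fell to 25.3, 28.1 and 26.7 FPKM in 2CLCs, against 47.4, 46.0 and 48.2 in ESCs (a log2 fold change of -0.80 ± 0.151, adjusted p = 0.00051), but the fall was not called under median-of-ratios scaling (adjusted p = 0.787). Col11a1 was lower, at 0.183, 0.3175 and 0.111 FPKM in 2CLCs, against 0.481, 0.411 and 0.448 in ESCs (-0.27, adjusted p = 0.0115), a call lost in 2 alternatives. Col9a2 stood at 1.62, 0.970 and 1.39 FPKM in 2CLCs, against 1.68, 1.75 and 1.75 in ESCs (-0.24, adjusted p = 0.0488). That call was lost in 11 alternatives, and turned to 0.23 under median-of-ratios scaling (adjusted p = 0.0840). The summed fibroblast markers stood at 6.03 to 8.17 FPKM in 2CLCs, against 3.321 to 3.9 in ESCs, with Prrx1 at 0 in both and Dcn at most 0.0359 in 2CLCs. Most of that sum was Thy1, named after its values were seen, at 4.38, 5.89 and 4.78 FPKM in 2CLCs, against 1.41, 0.896 and 0.897 in ESCs. The endoderm markers summed to 5.44 to 5.61 in 2CLCs, against 15.1 to 16.6 in ESCs, with Sox7 at 0 in 2CLCs, and the part of either list was not tested.

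Col4a1 and Col4a2 make chains that join in the proportion of 2 to 1. Their FPKM ratio, which is of RNA and does not give the proportion of chains, was lower in EpiSCs and MEFs than in ESCs. The ratio was 3.44, 3.09 and 3.42 in 2CLCs, 2.64, 2.02 and 1.89 in EpiSCs and 1.19, 1.22 and 1.22 in MEFs, against 3.43, 3.69 and 3.88 in ESCs. EpiSCs and MEFs lay below all ESC libraries, and 2CLCs overlapped with them. In the lactate table it was 3.14, 3.10 and 3.39 at 0 mM, 3.97, 3.17 and 2.85 at 60 mM and 3.08, 2.62 and 2.71 at 80 mM. Of 6 exact permutation tests of the ratio (two-sided), EpiSCs and MEFs against ESCs and 80 mM against 0 mM gave p = 0.1, the smallest possible (Benjamini-Hochberg 0.2 over the 6), and the others gave p from 0.2 to 0.8 (adjusted 0.24 to 0.8). The design therefore cannot reach 0.05 for any of them.

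**Figure D3:**
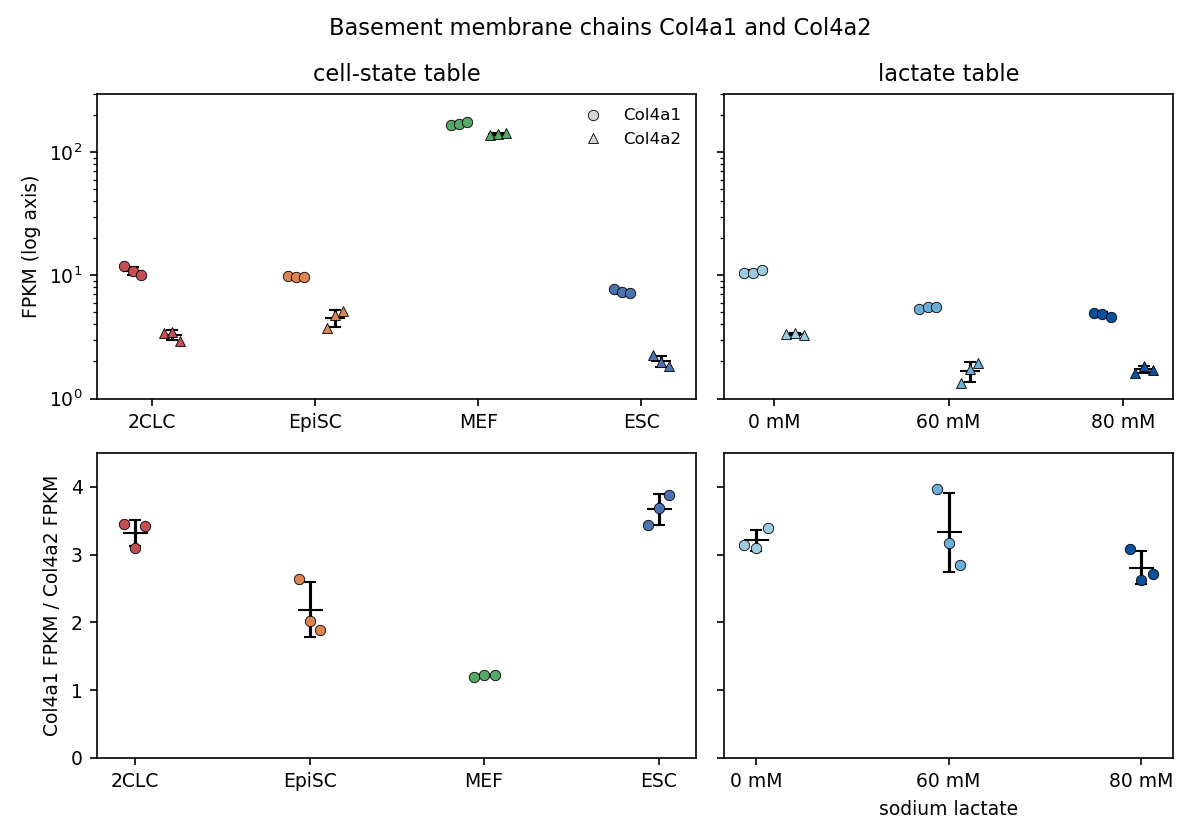
Top, FPKM of Col4a1 (circles) and Col4a2 (triangles) on a log axis. Bottom, their ratio. Points are libraries, the dash and bar are the mean and SD of 3. The ratio averaged 3.32 in 2CLCs, 2.19 in EpiSCs and 1.21 in MEFs, against 3.67 in ESCs.

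ESCs with 60 and 80 mM lactate were compared with ESCs at 0 mM. The type IV pair, Col18a1, Col5a1 and Col2a1 fell at both doses, and 2 low fibrillar genes, Col11a1 and Col5a3, rose. At 60 mM against 0 mM, 2 of the 8 genes tested rose and 5 fell, beside 23.5% and 18.6% (42.1% in all) of the 13271 genes tested. Without 0 mM replicate 1 only Col11a1 was called higher at 60 mM. At 80 mM against 0 mM, 2 rose and 5 fell, beside 30% and 23.1% (53.1% in all). The comparisons share the 0 mM libraries. The chains together made up 0.0206% ± 0.000559 of all FPKM at 0 mM, 0.0166% ± 0.000835 at 60 mM and 0.0159% ± 0.000344 at 80 mM (SD, n = 3), with no overlap of either dose with 0 mM (exact permutation p = 0.1 each, the smallest possible).

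Col4a1 stood at 10.5, 10.4 and 11.1 FPKM at 0 mM, 5.33, 5.5 and 5.55 at 60 mM and 4.99, 4.85 and 4.62 at 80 mM. Its log2 fold change was -0.85 ± 0.056 (SE, adjusted p = 3.19e-06) at 60 mM and -1.002 ± 0.056 (adjusted p = 4.92e-07) at 80 mM. Col4a2 stood at 3.33, 3.37 and 3.27 FPKM at 0 mM, 1.34, 1.74 and 1.95 at 60 mM and 1.62, 1.85 and 1.70 at 80 mM. It fell by 0.70 ± 0.096 at 60 mM (adjusted p = 0.000306) and by 0.67 ± 0.096 at 80 mM (adjusted p = 0.000238). In both genes every library with lactate lay below every 0 mM library. The 4 other type IV genes were at most 0.0690 FPKM in any lactate-table library.

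Col18a1 stood at 55.5, 54.8 and 57.3 FPKM at 0 mM, 43.4, 45.2 and 45.6 at 60 mM and 41.6, 40.5 and 41.8 at 80 mM. Its log2 fold change was -0.31 ± 0.034 at 60 mM (adjusted p = 6.75e-05) and -0.43 ± 0.034 at 80 mM (adjusted p = 4.68e-06). The 3 doses did not overlap, although 80 mM against 60 mM did not pass the test (-0.11, adjusted p = 0.0808). Col5a1 stood at 2.94, 3.01 and 3.29 FPKM at 0 mM, 1.96, 2.02 and 2.12 at 60 mM and 1.98, 2.08 and 2.01 at 80 mM (-0.43 at each dose, adjusted p = 0.00118 and 0.000737). Col2a1 averaged 1.59 FPKM at 0 mM, 1.16 at 60 mM and 1.13 at 80 mM (adjusted p = 0.0240 and 0.0133, the call at 60 mM lost in 4 alternatives). Both fibrillar genes reached their lower level by 60 mM.

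Col11a1 moved the other way, with 1.02, 0.905 and 0.748 FPKM at 0 mM, 1.47, 1.47 and 1.65 at 60 mM and 1.88, 2.19 and 1.81 at 80 mM. Its log2 fold change was 0.42 ± 0.095 at 60 mM (adjusted p = 0.00554) and 0.65 ± 0.095 at 80 mM (adjusted p = 0.000277). Col5a3, the third type V chain, averaged 0.699 FPKM at 0 mM, 1.13 at 60 mM and 1.30 at 80 mM (0.33, adjusted p = 0.0152, and 0.44, adjusted p = 0.00224), calls lost at both doses with quantile normalization (adjusted p = 0.225 and 0.0759). Neither gene had overlapping groups. Col9a2, at 3.07, 3.54 and 3.44 FPKM at 0 mM, 3.27, 4.24 and 5.03 at 60 mM and 4.04, 3.26 and 3.33 at 80 mM, passed in neither comparison (adjusted p = 0.149 and 0.712), and without the first 60 mM library it was called higher at 60 mM (0.37, adjusted p = 0.0241). Between 80 and 60 mM 0 of the 8 genes were called higher or lower by limma, beside 4.06% and 2.11% (6.17% in all) of the genes tested, and 3 of them had an unadjusted p under 0.05 (Col18a1, Col4a1 and Col11a1, at 0.00776, 0.0217 and 0.0394).

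**Figure D4:**
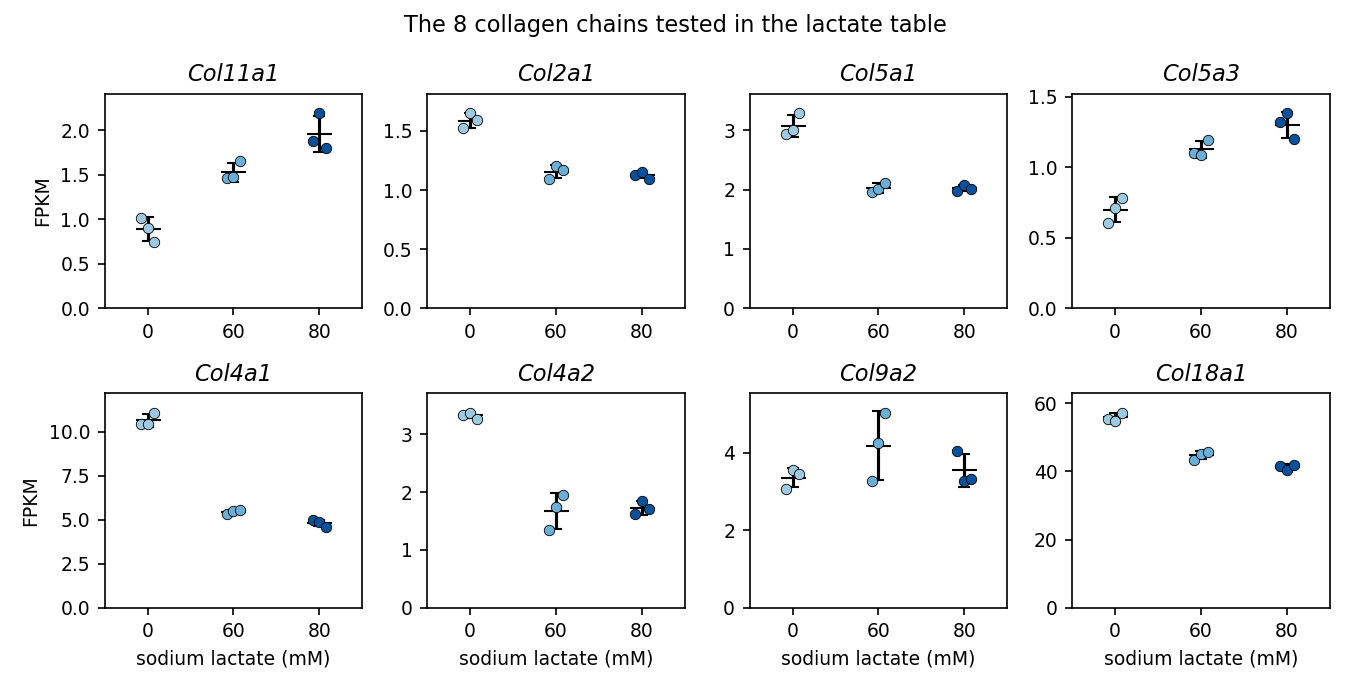
FPKM of the 8 collagen genes tested in the lactate table against the sodium lactate dose in mM, with 3 libraries per dose as points, and their mean and SD as dash and bar. Col4a1 averaged 10.7 FPKM at 0 mM, 5.46 at 60 mM and 4.82 at 80 mM, and Col11a1 0.890, 1.53 and 1.96.

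The other 36 genes stayed under the filter in the lactate table. With no filter, Col17a1, Col1a2 and Col20a1 were called higher at both doses, Col7a1 at 60 mM, and Col11a2, Col22a1, Col27a1, Col6a4 and Col6a6 at 80 mM, all below 1 FPKM. Col20a1 stood at 0.147, 0.220 and 0.143 FPKM at 0 mM, 0.472, 0.328 and 0.516 at 60 mM and 0.614, 0.569 and 0.651 at 80 mM. Col17a1, a transmembrane chain of hemidesmosomes, stood at 0.156, 0.190 and 0.0654 FPKM at 0 mM, 0.532, 0.515 and 0.602 at 60 mM and 0.6065, 0.6365 and 0.448 at 80 mM. In both genes the libraries with lactate lay above all 0 mM libraries, at levels well under those of Col18a1. Col13a1, which rose in 2CLCs, was at 0.942, 0.734 and 0.7885 FPKM at 0 mM, 0.396, 0.906 and 0.810 at 60 mM and 0.524, 0.696 and 0.5035 at 80 mM, and was not tested. The endoderm markers summed to 19.1 to 19.6 FPKM at 0 mM, 23.2 to 23.7 at 60 mM and 26.5 to 29.5 at 80 mM, and the fibroblast markers to 3.58 to 4.04, 4.70 to 6.03 and 6.28 to 6.88. The 2-cell-like markers summed to 29.6 to 29.9 FPKM at 0 mM, 63.8 to 69.5 at 60 mM and 103 to 107 at 80 mM. The primed epiblast markers summed to 58.4 to 63.4, 83.4 to 91.3 and 89.9 to 94.6, the endothelial markers to 33.6 to 35.6, 40.7 to 43.6 and 38.6 to 41.1, and the naive markers to 1482 to 1548, 1628 to 1694 and 1701 to 1755. Their part in the collagen levels was not tested.

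Genes whose products make, process, bind or break down collagen were counted from 4 lists. Those that passed the filter only through a single group were not counted apart. In a comparison with that group their direction was fixed by the filter. The counts stand beside 20.1% higher and 56.4% lower of all genes tested in 2CLCs, 33.2% and 26.5% in EpiSCs, and 34.4% and 40.9% in MEFs, each against ESCs. Over all genes of the lactate table the shares were 23.5% and 18.6% at 60 mM and 30% and 23.1% at 80 mM. In none of the 4 lists did the genes lower in 2CLCs make up a larger share than over all genes. Of 22 collagen biosynthesis genes tested, 3 rose and 7 fell in 2CLCs, 12 rose and 6 fell in EpiSCs, and 18 rose and 1 fell in MEFs, each against ESCs. Of 20 tested in the lactate table, 12 rose and 2 fell at 60 mM, and 12 rose and 1 fell at 80 mM, against 0 mM. P4ha2, a subunit of the prolyl 4-hydroxylase that stabilises the triple helix, stood at 164, 190 and 125 FPKM in 2CLCs, 5.78, 66.1 and 70.5 in EpiSCs and 36.3, 35.9 and 36.2 in MEFs, against 2.51, 1.87 and 1.86 in ESCs. With lactate it stood at 3.67, 2.56 and 2.72 FPKM at 0 mM, 9.07, 7.63 and 8.88 at 60 mM and 16.8, 16.5 and 16.1 at 80 mM, with a further rise between the doses (0.88, adjusted p = 0.00208). The first EpiSC library was far below the others, as it was for the related subunit P4ha1 (12.4, 68.4 and 73.4 FPKM in EpiSCs, against 4.13, 3.06 and 3.64 in ESCs). Colgalt2, which adds galactose to collagen hydroxylysines, stood at 70.7, 72.1 and 62.9 FPKM in 2CLCs, against 0.0502, 0.00287 and 0.0845 in ESCs (6.05 ± 0.072, adjusted p = 2.48e-14), and was at most 0.0686 in EpiSCs and MEFs. Colgalt2 passed the filter of the cell-state table only through the 2CLC libraries, so that its direction was fixed by the filter. Its lactate values, named after they were seen, were 0.517, 0.380 and 0.458 FPKM at 0 mM, 1.36, 1.31 and 1.37 at 60 mM and 1.86, 1.66 and 1.56 at 80 mM (adjusted p = 0.000204 and 2.19e-05 against 0 mM). Serpinh1, a chaperone of the triple helix, averaged 8.61 FPKM in 2CLCs, where it fell, and stood at 97.3, 92.7 and 96.1 FPKM in EpiSCs and 373, 376 and 371 in MEFs, against 16.8, 16.95 and 15.1 in ESCs. Fkbp10, another chaperone, fell to 0.3095, 0.255 and 0.559 FPKM in 2CLCs and rose to means of 18.2 in EpiSCs and 130.6 in MEFs, against 8.86, 9.21 and 10.1 in ESCs. P4ha3 was 18.0 FPKM in MEFs and 0.0665 in ESCs, and passed the filter only through the MEF libraries. At both doses Tmem38b was called higher, at 10.2 FPKM at 0 mM, 13.9 at 60 mM and 16.9 at 80 mM, as was Plod1 at 60 mM (10.7, against 8.46 at 0 mM) and P4ha1 at 80 mM (5.93, against 3.34 at 0 mM).

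The processing and crosslinking list (13 tested, then 5 in the lactate table) had 1 gene higher and 7 lower in 2CLCs, 5 and 4 in EpiSCs, 12 and 1 in MEFs, and 1 and 2 at each lactate dose. Lox, an enzyme that starts collagen crosslinks, stood at 123, 124 and 134 FPKM in MEFs and at most 0.0113 in ESCs. Lox passed the filter only through the MEF libraries, so that its direction was fixed by the filter. Loxl2 and Loxl3 averaged 70.1 and 71.3 FPKM in MEFs, against 0.285 and 0.340 in ESCs, and Loxl2 stood at 2.97, 19.9 and 20.5 in EpiSCs. Pcolce, which enhances the cleavage of fibrillar procollagen, fell to 7.002, 5.05 and 10.7 FPKM in 2CLCs and 5.82, 3.48 and 2.98 in EpiSCs and rose to a mean of 238 in MEFs (1.41, adjusted p = 0.000158), against 94.2, 86.8 and 86.8 in ESCs. It also averaged 22.2 FPKM at 0 mM, 10.9 at 60 mM and 9.29 at 80 mM. Pcolce2, of the same family, was called lower in 2CLCs (4.87 FPKM, against 11.5 in ESCs) and at both doses. Pxdn, which crosslinks type IV collagen, stood at 33.5, 27.2 and 27.9 FPKM in EpiSCs, against 2.28, 2.38 and 2.62 in ESCs. Sparc, a collagen-binding matrix protein, averaged 107 FPKM in 2CLCs, 79.4 in EpiSCs and 534 in MEFs, against 60.7 in ESCs, and 144 at 0 mM, 156 at 60 mM and 182 at 80 mM. Its call at 60 mM was lost in 4 alternatives (adjusted p 0.0593 to 0.0754).

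Of 7 receptor and uptake genes tested, 1 rose and 2 fell in 2CLCs, 4 rose and 0 fell in EpiSCs and 7 rose in MEFs, and of 3 tested with lactate 2 rose and 1 fell at each dose. Ddr2, a kinase receptor for fibrillar collagen, stood at 16.5, 16.6 and 13.9 FPKM in 2CLCs and 59.8, 58.4 and 55.4 in MEFs, against 0.149, 0.110 and 0.125 in ESCs, and was listed at 0 in EpiSCs. With lactate it stood at 1.48, 1.57 and 1.81 FPKM at 0 mM, 4.91, 4.77 and 5.30 at 60 mM and 5.74, 6.05 and 6.19 at 80 mM (adjusted p = 2.57e-06 and 3.47e-07 against 0 mM). Ddr1, the related receptor that also binds type IV collagen, stood at 31.9, 34.9 and 34.6 FPKM in EpiSCs, against 2.92, 2.998 and 2.91 in ESCs. It was 0.192, 0.408 and 0.296 FPKM in 2CLCs, below every ESC library. With lactate Ddr1 averaged 3.24 FPKM at 0 mM, 5.65 at 60 mM and 6.59 at 80 mM. Mrc2, an uptake receptor, averaged 8.96 FPKM in EpiSCs and 57.4 in MEFs, against 0.373 in ESCs. Itgb1, the β1 integrin chain, averaged 57.3 FPKM in 2CLCs, 101 in EpiSCs and 485 in MEFs, against 70.9 in ESCs, and its fall in 2CLCs (-0.30) became a rise (0.46, adjusted p = 0.00082) with median-of-ratios scaling. At 60 and 80 mM it was slightly lower (67.5 and 68.8 FPKM, against 74.6 at 0 mM).

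Of 11 breakdown and inhibitor genes tested, 1 rose and 6 fell in 2CLCs, 5 rose and 1 fell in EpiSCs and 10 rose and 1 fell in MEFs, and of 4 tested with lactate 1 rose and 2 fell at each dose. Mmp14, a membrane collagenase, averaged 1.62 FPKM in 2CLCs and 199 in MEFs, against 15.4 in ESCs, and 6.47 at 0 mM, 5.5 at 60 mM and 4.22 at 80 mM, its call at 60 mM lost in 7 alternatives and its further fall at 80 mM against 60 mM (-0.32, adjusted p = 0.0276) in 6. Timp1, an inhibitor of such enzymes, averaged 14.7 FPKM in 2CLCs, 10.7 in EpiSCs and 186.5 in MEFs, against 28.4 in ESCs, and 32.2 at 0 mM, 21.8 at 60 mM and 20.8 at 80 mM. Its fall in 2CLCs was not called with median-of-ratios scaling (-0.16, adjusted p = 0.0567). Timp2, Mmp3 and Timp3 had the largest log2 fold changes of this list in MEFs, with Timp2 at 438 FPKM in MEFs and 0.5275 in ESCs and Mmp3 at 81.2 in MEFs and listed at 0 in ESCs. Mmp3 passed the filter only through the MEF libraries, so that its direction was fixed by the filter. Mmp2, which cuts type IV collagen, averaged 6.52 FPKM in EpiSCs and 1.95 in ESCs, and Timp3 averaged 6.24 in EpiSCs and 54.4 in MEFs, against 0.485 in ESCs.

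**Figure D5:**
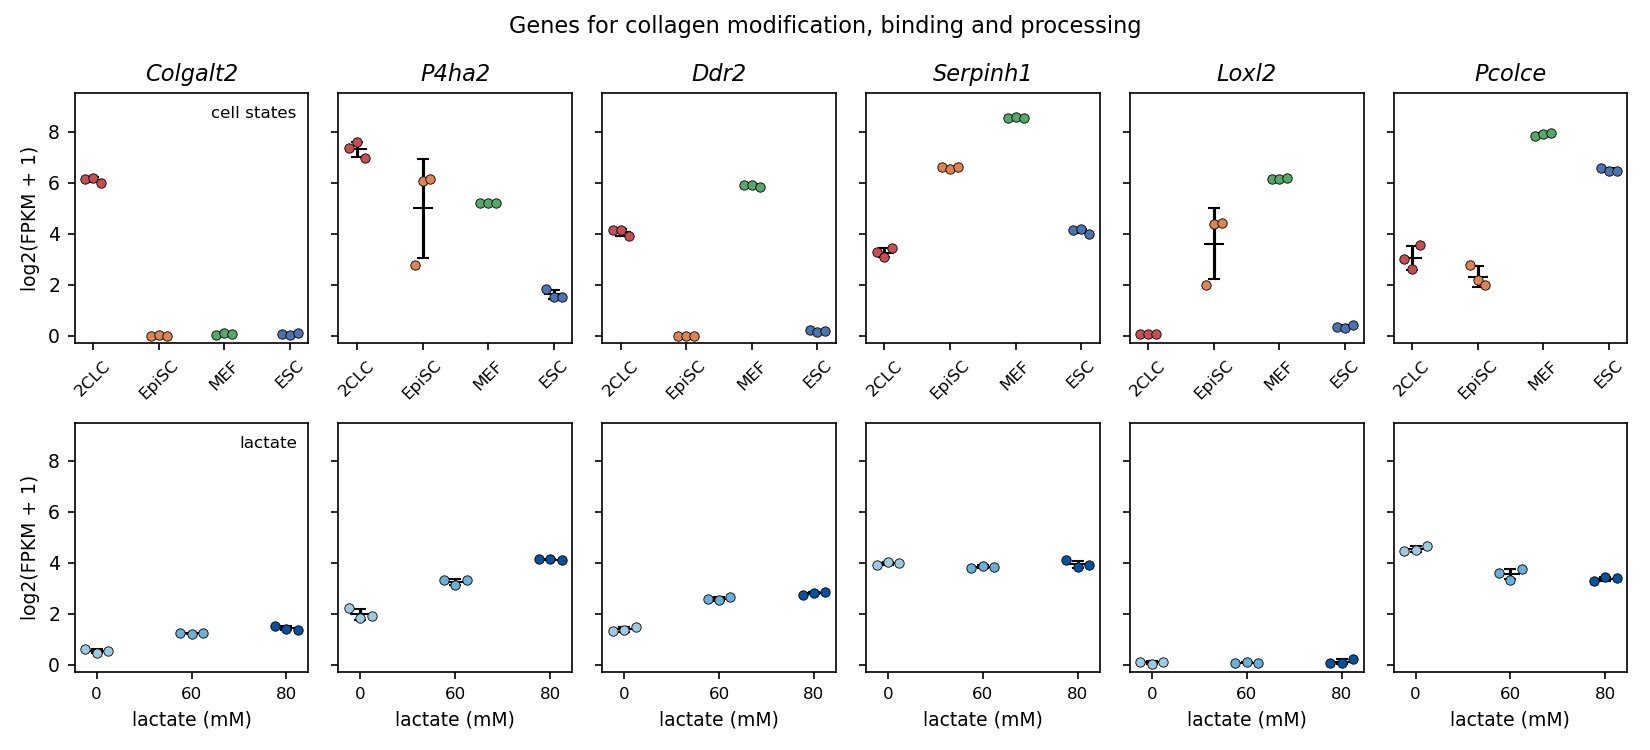
Levels of 6 genes of the collagen biosynthesis, receptor and processing lists as log2(FPKM + 1), above in the cell states and below by lactate dose in mM, with 3 libraries as points and their mean and SD. Colgalt2 averaged 68.5 FPKM in 2CLCs and 0.0459 in ESCs, and P4ha2 2.98 at 0 mM, 8.53 at 60 mM and 16.5 at 80 mM.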

How the data were processed

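RNA was measured in 21 libraries, made per the labels' protocols from Trizol-extracted total RNA with a TruSeq kit and sequenced on a MiSeq. The submitters' processing notes name HISAT2 2.0.4, StringTie 2.1.4 and mm10; no label or header names the annotation. The FPKM values were used as deposited by the authors, without read counts, so depth is unknown and no counting intervals are given. Groups came from the labels. Nothing says that replicates were separate cultures, and p-values therefore reflect only how these samples vary, which may be technical. No collagen gene was among the 35 and 112 repeated names of the tables. The cell-state table holds only names that reach 0.5 FPKM in a library.

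The members and gene lists were chosen with earlier results of these data known. Values were taken as log2(FPKM + 1). Each table was tested in a single limma (3.58.1, R 4.3.3) model holding its groups, with trended eBayes moderation. A gene needed 1 FPKM or more in 3 libraries, and the adjusted p (Benjamini-Hochberg over all genes of a comparison) was held to 0.05. The steps were tested on simulated data, with changes put into 200 genes at about 5 FPKM or more and the other genes left unchanged. Changes of 0.5 on the log2 scale were called in 55.2 to 61.2% of cases in the cell-state comparisons and 86.6 to 92.5% in the lactate comparisons. Of the calls, 4.02 to 6.31% were false. In the data many more genes were called, 59.7 to 76.5% in the cell-state comparisons, and only 2 of 32 collagen chains averaged 5 FPKM in ESCs. These rates therefore do not give the power or the false calls for the collagen genes. Shares and ratios were compared by exact permutation tests over libraries. The text names with every library's value the chains that average 5 FPKM in a group and the partner chains that reach 1, and per accompanying list the 3 largest calls whose higher group averages 5 FPKM or more; other members are named by call. Alternatives were a pseudocount of 0.1, no filter or 5 FPKM, median-of-ratios scaling, quantile normalization, a fit of the compared groups, a replicate block and leaving out each library. Leaving out libraries for the ratios was chosen after seeing the data. Genes were placed with GENCODE M21 (GRCm38), and promoters came from RefSeq (GRCm38.p6). Tables used pandas 2.3.3 and numpy 2.4.6 under Python 3.11.15, and figures used matplotlib 3.10.9.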

Additional observations from a re-analysis of the deposited data

How the results depend on the processing

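Of 142 single-gene results, some of them for genes that were not called, 117 kept their direction and their side of the threshold in every alternative in which the gene passed the filter. For a gene not called, that means it stayed uncalled. The 4 collagen genes lower in 2CLCs became 2 with no filter, 0 with median-of-ratios scaling, 1 in a fit of the compared groups and 1 to 3 without 1 library. In EpiSCs the fit of the compared groups, which tests 9 collagen genes, gave 7 higher and 1 lower. In MEFs leaving out a MEF library, with 16 collagen genes then passing the filter, gave 10 or 11 higher. Leaving out an ESC library, with all 27 still tested, gave 21 or 22 higher. Either way 2 were lower, and 2 were also lower with no filter, with a filter of 5 FPKM, with median-of-ratios scaling and in the fit of the compared groups. At 60 mM 6 genes were higher with no filter, 0 with a filter of 5 FPKM (2 genes tested, 2 lower), 1 with quantile normalization and 1 to 3 without 1 library. At 80 mM the counts were 10, 0 (2 lower) and 1. Among small changes, Col9a2 turned to 0.23 in 2CLCs and Itgb1 to 0.46 with median-of-ratios scaling; at 80 against 0 mM Col9a2 turned to -0.0475 with quantile normalization and -0.0172 without 80 mM replicate 1; at 80 against 60 mM Col4a2 turned to -0.0212 with quantile normalization and to between -0.0625 and 0.1041 without 1 library, and Col5a1 to between -0.0204 and 0.0173. The Col4a1 to Col4a2 ratio at 60 less 0 mM was -0.201 without 60 mM replicate 1 and up to 0.360 without another. The cause was not tested. Same-numbered replicates did not deviate together (correlations of -0.066 to 0.103 in the cell-state table and -0.014 to 0.072 in the lactate table), and with a replicate block 3 collagen genes were lower in 2CLCs and 22 higher in MEFs, with the other counts unmoved. Scaling a library leaves the collagen share of its FPKM as it is. Read counts would be needed to say how well levels under 1 FPKM were measured.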
